A study of Mus musculus with 23 samples.

Results

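The synaptonemal complex and meiotic axis genes are 10 genes taken by name from a table of read counts for 27466 genes, namely Stag3, Sycp2, Sycp3, Hormad1, Hormad2, Sycp1, Syce1, Syce2, Syce3 and Tex12. The RNA came from testes of wild-type (wt) CD-1 mice at 4 ages, 6.5 and 10.5 days postpartum (dpp) and later 22.5 and 36.5 dpp, and from explants of 6.5 dpp testes kept in organ culture for 4, 16 or 30 days (D4, D16, D30), which match the 3 later ages. Every explant grew in a medium with serum replacement, gentamicin and retinol. Cultured explants were pooled for each sample after their necrotic centre had been cut away, so a D4, D16 or D30 library describes the outer tissue only. Most tissue was fresh. Some 6.5 dpp testes had been through controlled slow freezing and thawing (CSF) and were either sampled or cultured for 30 days.

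The 21 libraries used had between 28351546 and 69029328 counts each. The 6.5 dpp group had 1 fresh library and 3 CSF ones, and D30 had 3 fresh libraries and 1 CSF one. The groups of 10.5 dpp, 22.5 dpp and D4 held 3 fresh libraries each, and those of 36.5 dpp and D16 held 2. The library labelled 6.5 dpp fresh replicate 1 was left out, because its profile was closest to a cultured one (Spearman 0.986 with D16 replicate 1 and 0.981 with 22.5 dpp replicate 2, against 0.909 with 6.5 dpp fresh replicate 2). Replicate 3 of the same group held the same count as replicate 2 for all 27466 genes and was not counted again. The labels do not say which libraries came from separate animals, so the tests measure the spread between libraries. Levels are given in CPM, the count of a gene scaled to a common total of counts on genes, as mean ± SD over libraries, or in CPM per kilobase of exon where genes are compared with each other. Calls are those of edgeR at an adjusted p under 0.05 over 19255 genes.

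In meiotic prophase each chromosome folds into loops along a protein axis, and the axes of homologous chromosomes are then zipped together by the synaptonemal complex. STAG3 is a subunit of the cohesin rings of meiotic cells, SYCP2 and SYCP3 are proteins of the axis, and HORMAD1 and HORMAD2 mark the axes that are not yet paired. SYCP1 forms the transverse filaments between the axes, and SYCE1, SYCE2, SYCE3 and TEX12 form the central element that holds the filaments together. In the testis, the axis assembles in leptotene, synapsis begins in zygotene and is complete in pachytene, and the complex comes apart in diplotene, before the divisions that give round spermatids.

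Because several of these genes moved together, the sequence upstream of their starts was read from RefSeq (GRCm38.p6) for all 10, as the 250 bases before the first listed start of each gene. On that build the genes lie as follows: Stag3 at chr5:138272514-138312397, Sycp2 at chr2:178345295-178407776, Sycp3 at chr10:88459587-88473236, Hormad1 at chr3:95559677-95587863, Hormad2 at chr11:4345801-4441198, Sycp1 at chr3:102818499-102936100, Syce1 at chr7:140777229-140787854, Syce2 at chr8:84872111-84887446, Syce3 at chr15:89390174-89410503 and Tex12 at chr9:50557148-50561268. The letters CACGTG, a palindromic E-box, occurred in 5 of the 10 windows (Hormad1, Sycp1, Sycp3, Tex12 and Stag3) and in 6.05% of all 27025 windows of that length. The letters TCCCGC, on either strand, occurred in 4 of 10 (Hormad1, Sycp3, Tex12 and Syce2) and in 16.9% of all windows. These motifs do not overlap each other in any of the sequences printed. The letters TGACG were in 3 windows (Syce1, Syce2 and Syce3, 17.9% of all windows), AACNG in all 10 (74.1%), CCAAT in 1 (Stag3, 34.5%) and GTTGCC in 0 (10.5%), each on either strand. The median number of CG dinucleotides was 12.5 in the 10 windows and 6 over all windows. For Stag3, Hormad2 and Sycp2 the first listed start lay inside the span of the gene. Below, 6 windows are printed 5′ to 3′ on the strand of the gene, with CACGTG and TCCCGC (or its reverse complement) in capitals: Hormad1, Sycp3 and Tex12 hold both, Sycp1 only the first, Syce2 only the second and Syce1 neither. A match describes the letters of a window and is not a measurement of binding.
Hormad1 (chr3:95559427-95559676, plus strand): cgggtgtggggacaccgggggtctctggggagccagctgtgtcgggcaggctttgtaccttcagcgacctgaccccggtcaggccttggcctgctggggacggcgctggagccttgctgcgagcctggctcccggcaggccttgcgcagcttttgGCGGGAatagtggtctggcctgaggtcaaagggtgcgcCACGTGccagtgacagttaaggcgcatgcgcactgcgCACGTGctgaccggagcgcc
Sycp3 (chr10:88459337-88459586, plus strand): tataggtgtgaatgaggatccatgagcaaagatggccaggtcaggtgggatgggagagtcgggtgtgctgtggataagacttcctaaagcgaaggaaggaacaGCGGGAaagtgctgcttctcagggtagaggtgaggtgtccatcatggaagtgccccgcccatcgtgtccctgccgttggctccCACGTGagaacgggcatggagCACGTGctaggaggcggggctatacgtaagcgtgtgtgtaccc
Tex12 (chr9:50561269-50561518, minus strand): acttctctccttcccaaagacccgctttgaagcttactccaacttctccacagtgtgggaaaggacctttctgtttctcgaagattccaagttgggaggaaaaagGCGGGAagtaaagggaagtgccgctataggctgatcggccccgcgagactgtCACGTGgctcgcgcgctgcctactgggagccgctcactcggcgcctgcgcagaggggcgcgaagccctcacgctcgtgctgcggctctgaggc
Sycp1 (chr3:102936101-102936350, minus strand): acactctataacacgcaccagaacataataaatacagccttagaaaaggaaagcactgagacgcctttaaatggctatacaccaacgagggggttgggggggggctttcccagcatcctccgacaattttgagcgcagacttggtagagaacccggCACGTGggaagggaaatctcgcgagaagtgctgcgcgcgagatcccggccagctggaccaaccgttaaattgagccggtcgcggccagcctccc
Syce2 (chr8:84871861-84872110, plus strand): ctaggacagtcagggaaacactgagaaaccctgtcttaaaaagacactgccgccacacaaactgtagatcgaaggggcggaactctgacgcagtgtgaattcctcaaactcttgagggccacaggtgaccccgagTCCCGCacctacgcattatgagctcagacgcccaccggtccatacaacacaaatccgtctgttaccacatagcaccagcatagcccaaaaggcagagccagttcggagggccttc
Syce1 (chr7:140787855-140788104, minus strand): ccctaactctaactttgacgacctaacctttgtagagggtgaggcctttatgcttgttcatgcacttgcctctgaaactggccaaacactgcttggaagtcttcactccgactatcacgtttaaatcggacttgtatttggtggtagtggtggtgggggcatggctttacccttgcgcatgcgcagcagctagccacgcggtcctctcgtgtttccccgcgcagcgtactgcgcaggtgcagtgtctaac

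**Figure D1:**
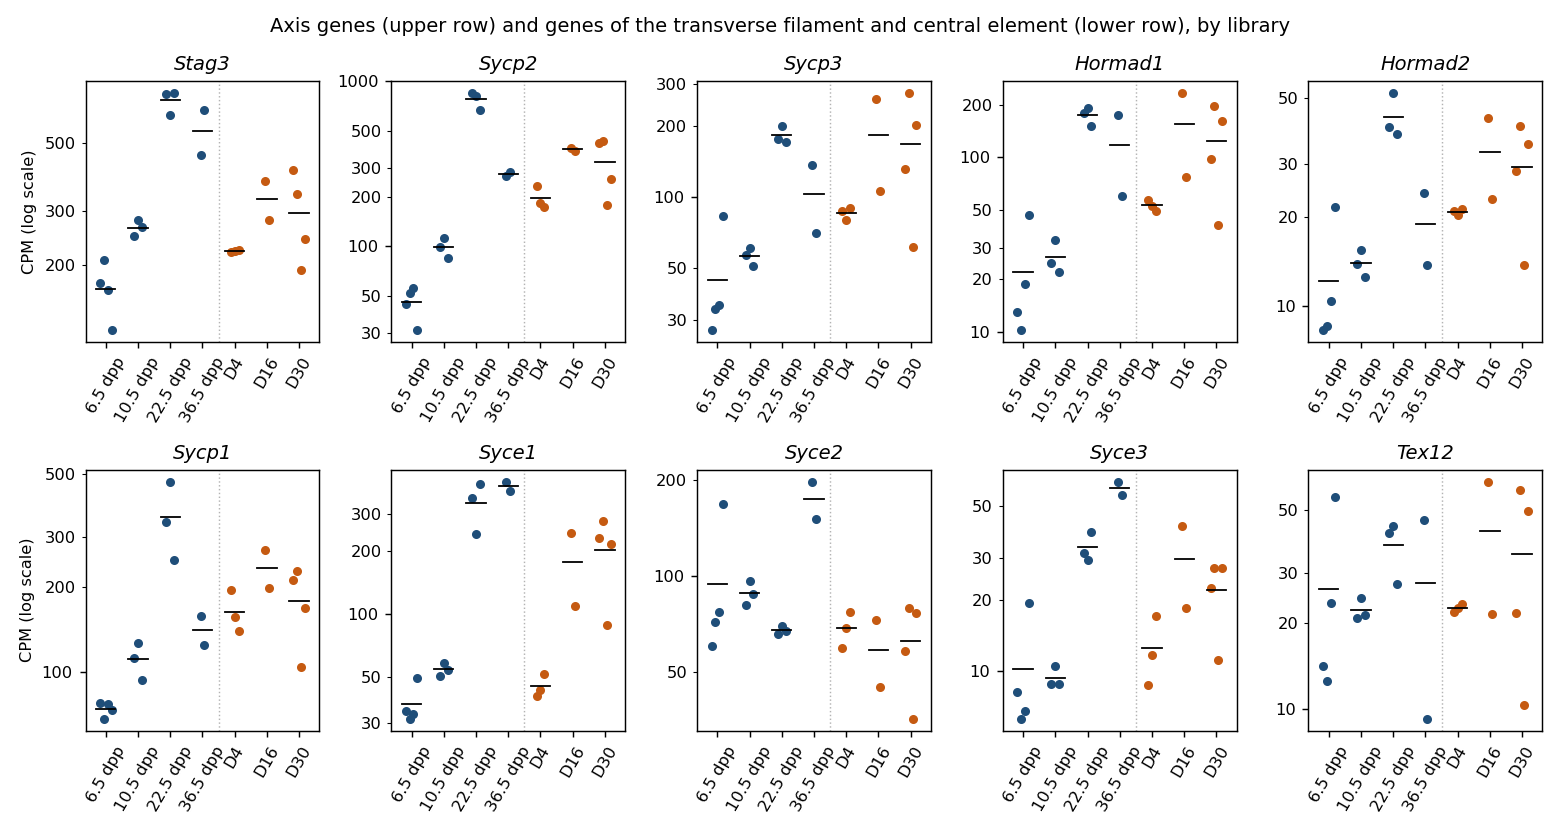
Level of each of the 10 genes in CPM (log axis) in every library, with in vivo stages in blue and culture days in orange. Points are libraries and bars are stage means; 8 of the 10 genes stood higher at 22.5 dpp than at 10.5 dpp by the test, and only Syce2 had its lowest in vivo mean at 22.5 dpp.

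The libraries also differed in how short and long transcripts were represented. Within its stage, the median of 1850 transcripts shorter than 1500 bases lay 0.56 (log2) above the stage mean in 6.5 dpp CSF replicate 3 and 0.49 below it, at -0.49, in D30 fresh replicate 3, while the values of the other libraries ran from -0.33 to 0.33. Tex12, Hormad1, Sycp3, Hormad2, Syce2, Syce3 and Syce1 were all above their stage mean in the first of these libraries and below it in the second. Their deviations ran from 0.56 to 1.44 in the first and from -1.50 to -0.80 in the second. Sycp2 and Stag3, whose exons add up to 5967 and 5733 bases, lay below their stage mean in both. The part of this pattern in the results below was not tested, but each count of calls was repeated without these 2 libraries. Short and long transcripts also moved apart between stages. The median log2 fold change was 0.84 for short and -0.25 for long transcripts between 10.5 and 22.5 dpp, and 0.63 and -0.23 between D4 and D16. Smaller shifts, from -0.30 to 0.20 for short transcripts, accompanied the steps from 6.5 to 10.5 dpp, 6.5 dpp to D4 and D16 to D30 and the comparison of D16 with 22.5 dpp.

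**Figure D2:**
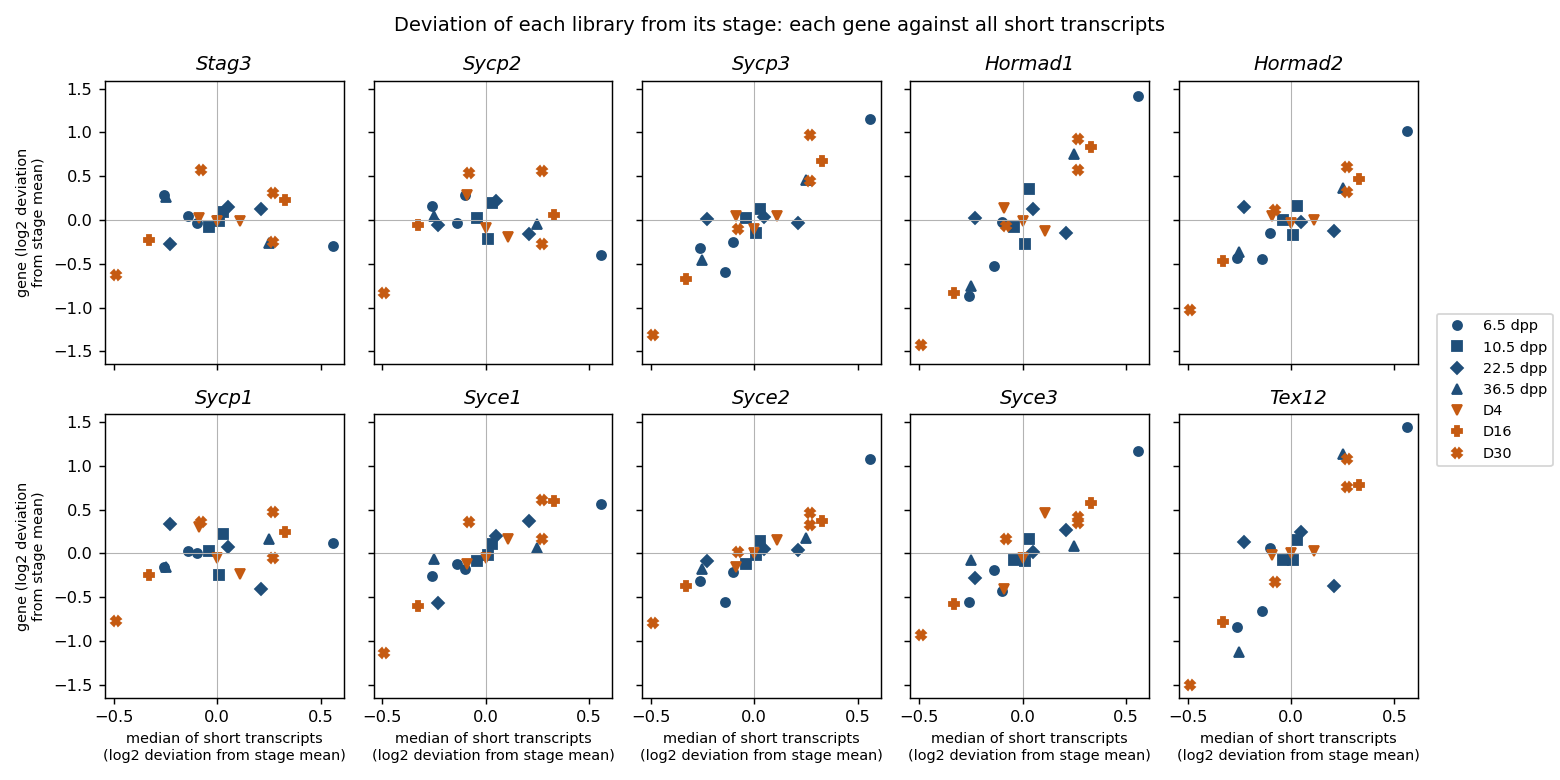
Deviation of each library from its stage mean on the log2 scale, for the median of all short transcripts (x axis) and for each gene (y axis), with 1 point per library. The 6.5 dpp library at 0.56 and the D30 library at -0.49 on the x axis are the extremes for Tex12, Hormad1, Sycp3, Hormad2, Syce2 and Syce3. Stag3 and Sycp2 do not follow the x axis over its whole range.

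At 6.5 dpp, before the first wave reaches meiosis, RNA of all 10 genes was already counted. Sycp2 had 44.6, 52.0, 55.9 and 31.1 CPM in the 4 libraries at 6.5 dpp and 99.3, 112 and 85.1 CPM at 10.5 dpp. Every library at 10.5 dpp was above every library at 6.5 dpp for Sycp2, Sycp1, Stag3 and Syce1, which was so for 10.3% of 23754 genes with a count. The test, edgeR's quasi-likelihood test, called 0 of the 10 genes at this step (1.14% of all genes were called), with 2 of 10 at an unadjusted p under 0.05. The nearest to the threshold was Sycp2, with a log2 fold change of 1.05 ± 0.26 (SE) and an adjusted p of 0.0659, and DESeq2 called it. Without D30 fresh replicate 3, edgeR called 1 of 10.

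Between 10.5 and 22.5 dpp, when pachytene spermatocytes appear, 8 of the 10 genes rose and 0 fell, against 33.6% of all genes that rose and 61.5% called in either direction. For 9 of the 10 genes every library at 22.5 dpp was above every library at 10.5 dpp (28.5% of genes with a count), and for 1, Syce2, every library was below (37.7%). The median log2 fold change was 1.97 over the 10 genes and 0.06 over all genes. Sycp2 was at 851, 814 and 673 CPM in the 3 libraries at 22.5 dpp. These levels stood far above the 85.1 to 112 CPM of 10.5 dpp, and the log2 fold change of 3.28 ± 0.31 (adjusted p = 9.83e-08) was the largest of the 10. Whole testes hold many cell types, so a larger share of spermatocytes and more RNA per spermatocyte cannot be told apart here.

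The other axis genes moved in the same direction over this step. Stag3 rose from 250, 281 and 266 CPM to 724, 621 and 731 CPM, a log2 fold change of 1.69 ± 0.26 (adjusted p = 2.72e-05). It was the smallest rise among the 8 called genes, from a level at 10.5 dpp that was already the highest of the 10 genes per kilobase, although not separated from Syce2 and Sycp3. Hormad1 went from 24.7, 33.5 and 21.9 CPM to 179, 192 and 152 CPM (log2 fold change 3.00 ± 0.63, adjusted p = 0.000548). Sycp3 went from 56.6, 60.7 and 51.0 CPM to 175, 200 and 171 CPM (1.99 ± 0.50, adjusted p = 0.00228). Hormad2, the lowest of the 10 per kilobase at every stage, rose from between 12.5 and 15.5 CPM to between 38.0 and 52.2 CPM (1.92 ± 0.41, adjusted p = 0.000647). Exons of Sycp3 share 660 bases, 52.2% of their length, with Chpt1 on the opposite strand, and since the strand setting of the counting is not stated, part of the Sycp3 counts may belong to that gene.

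Among the genes of the filament and the central element, the response at 22.5 dpp was uneven. Sycp1 had 112, 127 and 93.4 CPM at 10.5 dpp and 339, 471 and 248 CPM at 22.5 dpp, a log2 fold change of 1.95 ± 0.28 (adjusted p = 1.17e-05). Syce1 rose from 50.6, 58.0 and 53.9 CPM to 356, 241 and 414 CPM, a change of 2.95 ± 0.39 (adjusted p = 5.44e-06), and Syce3 from between 8.86 and 10.5 CPM to between 29.6 and 38.8 CPM (2.13 ± 0.45, adjusted p = 0.000588). Syce1 and Sycp1 were not ordered alike across the 3 libraries of 22.5 dpp, since replicate 2 was the highest for Sycp1 and the lowest for Syce1. Tex12 and Syce2 were the 2 genes not called. Tex12, the partner of SYCE2 in the central element, had 20.8, 24.5 and 21.3 CPM and then 41.4, 44.0 and 27.5 CPM (1.05 ± 0.66, adjusted p = 0.175), with every library at 22.5 dpp above those at 10.5 dpp. Syce2 had 81.0, 96.4 and 88.1 CPM and then 65.9, 69.5 and 67.3 CPM, so that its libraries at 22.5 dpp all lay below those at 10.5 dpp in CPM, while the fitted change was -0.09 ± 0.36 (adjusted p = 0.834).

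Between 22.5 and 36.5 dpp, when spermatids accumulate, the 10 genes went in different directions. Syce2 and Syce3 rose and Sycp1 and Sycp2 fell, so 4 of 10 were called against 50.7% of all genes (23.3% higher and 27.5% lower). Every library at 36.5 dpp was above every one at 22.5 dpp for 2 genes (19.7% of genes with a count) and below for 4 (43.6%). The exons of the 2 genes that rose add up to 553 (Syce3) and 1968 bases (Syce2) and those of the 2 that fell to 3556 (Sycp1) and 5967 bases (Sycp2). Over all genes, short transcripts had a median log2 fold change of 0.80 and long ones of -0.51 at this step, and the part of this shift in the 4 calls was not tested. Syce2 was at 198 and 151 CPM in the 2 libraries at 36.5 dpp, above every other main library except 6.5 dpp CSF replicate 3 at 168 CPM, with a log2 fold change of 1.87 ± 0.40 (adjusted p = 0.000912). Syce3 was at 63.2 and 55.5 CPM (1.33 ± 0.48, adjusted p = 0.0275), above all 3 libraries of 22.5 dpp. Syce1 was at 427 and 385 CPM, with 1 of the 3 libraries of 22.5 dpp in that range (0.76 ± 0.40, adjusted p = 0.125).

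The filament gene and the axis gene called at this step moved downward. Sycp2 had 268 and 281 CPM at 36.5 dpp and fell by 1.00 ± 0.33 on the log2 scale (adjusted p = 0.0175), and Sycp1 had 158 and 124 CPM and fell by 0.80 ± 0.31 (adjusted p = 0.0385). In both, the libraries at 36.5 dpp lay below all those at 22.5 dpp. Stag3 had 458 and 644 CPM, around the lowest library of 22.5 dpp (0.17 ± 0.28, adjusted p = 0.631). Tex12 differed most between the 2 libraries of this stage, at 46.2 and 9.21 CPM, followed by Hormad1 at 174 and 59.9 CPM. In these libraries the short transcripts lay 0.25 above and 0.25 below the stage mean.

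With 2 libraries at 36.5 dpp the smaller calls of this step were fragile. Sycp1 was not called without 22.5 dpp replicate 1 (adjusted p = 0.0706), 22.5 dpp replicate 2 (0.14), 36.5 dpp replicate 1 (0.0745) or 36.5 dpp replicate 2 (0.196). Sycp2 was not called without 22.5 dpp replicate 1 (0.0511), 36.5 dpp replicate 1 (0.1) or 36.5 dpp replicate 2 (0.0612), and Syce3 not without 22.5 dpp replicate 1 (0.0591) or replicate 2 (0.0894) or 36.5 dpp replicate 1 (0.11) or replicate 2 (0.0617). Syce2 was called without any 1 of these libraries. In a fit of the 2 stages alone the rises of Syce2 and Syce3 were called and the falls of Sycp1 and Sycp2 were not. Without 6.5 dpp CSF replicate 3 and D30 fresh replicate 3 together, 6 of 10 were called, with Syce1 and Hormad2 added.

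Per kilobase of exon, the order of the genes changed with age. At 10.5 dpp Stag3 (46.3 ± 2.66 CPM per kb), Syce2 (45.0 ± 3.91) and Sycp3 (44.4 ± 3.85) were highest and their libraries overlapped. At 22.5 dpp Syce1 led with 231 ± 60.1 CPM per kb, above Sycp3 at 144 ± 12.5 in every library, while Sycp3, Sycp2, Stag3, Hormad1 and Sycp1 followed as a chain of overlapping neighbours down to 99.1 ± 31.6. Syce2 was ninth of 10 there, at 34.3 ± 0.906 CPM per kb. At 36.5 dpp Syce1 was again first with 278 ± 20.3 CPM per kb, well apart from Syce3 at 107 ± 9.86, which overlapped with Stag3 at 96.1 ± 22.9 and was followed by Syce2 at 88.5 ± 16.8. Added up per kilobase, the 5 genes of the filament and central element stood at 0.905 ± 0.105 of the 5 axis genes at 22.5 dpp and at 1.83 ± 0.114 of them at 36.5 dpp. This ratio moved in the direction of the shift between short and long transcripts over the step. Sycp2 and Stag3 have the longest exon totals of the 10 and belong to the axis. The part of the shift in the ratio was not tested. The 5 genes of the filament and central element did not move alike. Means per kilobase were higher at 36.5 dpp for Syce1, Syce2 and Syce3. They were lower for Sycp1 (39.7 against 99.1 CPM per kb) and Tex12 (27.2 against 37.0).

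After 4 days in culture, the explants showed higher levels of several of these genes than the 6.5 dpp libraries. The D4 explants were fresh, while 3 of the 4 libraries at 6.5 dpp were CSF. A fit of fresh libraries only left 1 library at 6.5 dpp, so it cannot settle the part of freezing in this comparison. The fresh 6.5 dpp library had 44.6 CPM of Sycp2 and 77.5 CPM of Sycp1. Sycp2 was at 232, 184 and 174 CPM at D4, against 31.1 to 55.9 CPM at 6.5 dpp, a log2 fold change of 2.14 ± 0.27 (adjusted p = 1.86e-05). Sycp1 was at 195, 156 and 139 CPM, against 68.3 to 77.5 CPM (1.17 ± 0.25, adjusted p = 0.00274). These were the 2 genes called of 10, both upward, against 20.9% of all genes in either direction and 10.8% upward. The median log2 fold change was 0.60 over the 10 genes and -0.03 over all genes. Hormad1 and Stag3 also had every D4 library above every 6.5 dpp library, which makes 4 of 10 with these (14.0% of genes with a count). Hormad1 was at 57.1, 52.7 and 49.0 CPM at D4 and at 13.0, 10.2, 18.8 and 46.4 CPM at 6.5 dpp (1.24 ± 0.55, adjusted p = 0.118), the last of these being CSF replicate 3. Without 6.5 dpp CSF replicate 3, 5 of 10 genes were called, and with the library labelled 6.5 dpp fresh replicate 1 kept, 0 of 10.

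D4 explants and 10.5 dpp testes have the same age, and here the 10 genes did not stand in a common relation. Sycp1, Sycp2, Sycp3, Hormad1 and Hormad2 had every D4 library above every 10.5 dpp library, which was so for 14.6% of genes with a count. Syce2 and Stag3 had every D4 library below, which was so for 25.9%. Sycp2 was at 232, 184 and 174 CPM at D4 and 99.3, 112 and 85.1 CPM at 10.5 dpp, so the lowest cultured library was still above the highest in vivo one (log2 fold change 1.08 ± 0.29, adjusted p = 0.0245). It was the only gene of 10 called, against 8.10% of all genes in either direction and 4.92% higher. Hormad1 had 57.1, 52.7 and 49.0 CPM against 24.7, 33.5 and 21.9 CPM (1.07 ± 0.60, adjusted p = 0.365). Sycp3 had 86.5, 79.4 and 89.8 CPM against 56.6, 60.7 and 51.0 CPM (0.69 ± 0.49, adjusted p = 0.527).

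The remaining values at this age were closer. Sycp1 had 195, 156 and 139 CPM against 112, 127 and 93.4 CPM (0.65 ± 0.27, adjusted p = 0.176), and Hormad2 20.9, 20.3 and 21.2 CPM against 13.9, 15.5 and 12.5 CPM (0.66 ± 0.40, adjusted p = 0.429). Stag3 was tightly grouped at D4, with 221, 222 and 225 CPM against 250, 281 and 266 CPM (-0.16 ± 0.25, adjusted p = 0.845). Syce1 had 40.3, 43.4 and 51.5 CPM against 50.6, 58.0 and 53.9 CPM (-0.18 ± 0.37, adjusted p = 0.896). The libraries of Syce1, Syce3 and Tex12 overlapped between the groups. Syce2 had 59.6, 68.8 and 77.2 CPM against 81.0, 96.4 and 88.1 CPM (-0.28 ± 0.36, adjusted p = 0.792), and the changes of Syce3 and Tex12 were 0.50 ± 0.44 and 0.11 ± 0.65.

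The number of calls at this age depended on which libraries set the spread. In a fit of the D4 and 10.5 dpp libraries alone, 5 of 10 were called, all higher at D4, namely Sycp1 (adjusted p = 0.00576), Sycp2 (0.000164), Sycp3 (0.000254), Hormad1 (0.000292) and Hormad2 (0.000738), while the share of all genes called was also larger, at 39.7%. The call of Sycp2 in the fit of all stages was lost without 10.5 dpp replicate 1 (adjusted p = 0.0862), 10.5 dpp replicate 3 (0.125), D4 replicate 1 (0.113) or D4 replicate 2 (0.0533), and with 6.5 dpp fresh replicate 1 kept (0.722). Short and long transcripts as a whole differed little between D4 and 10.5 dpp, with median log2 fold changes of -0.06 and 0.01.

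**Figure D3:**
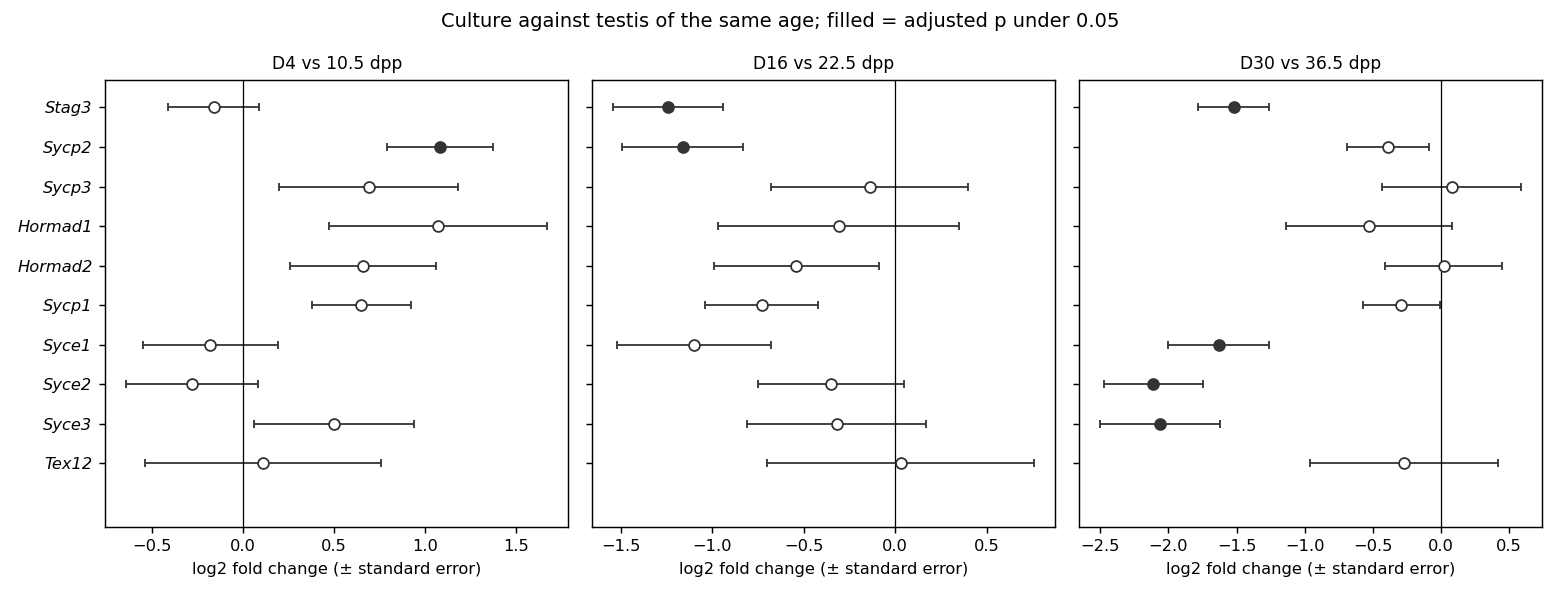
Log2 fold change (± standard error) of each gene in cultured explants against testes of the same age, from the fit of all stages, with filled points for an adjusted p under 0.05. Sycp2 is called higher at D4 (1.08) and lower at D16 (-1.16), and the 4 genes called at D30 (Stag3, Syce1, Syce2 and Syce3) are all lower than at 36.5 dpp.

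Between D4 and D16 Sycp2 and Syce1 rose, so 2 of 10 were called against 23.9% of all genes (18.4% higher), with 6 of 10 at an unadjusted p under 0.05. Sycp2 went from 232, 184 and 174 CPM to 396 and 379 CPM, a log2 fold change of 1.03 ± 0.31 (adjusted p = 0.0223). Syce1 went from 40.3, 43.4 and 51.5 CPM to 244 and 109 CPM (2.03 ± 0.41, adjusted p = 0.00103). For 8 of the 10 genes both D16 libraries were above all D4 libraries, which was so for 24.4% of genes with a count, and the exceptions were Syce2 and Tex12. The 2 D16 libraries differed widely for Hormad1 (234 and 76.8 CPM), Sycp3 (259 and 106 CPM), Tex12 (62.9 and 21.6 CPM) and Syce3 (40.9 and 18.6 CPM), but not for Sycp2. Their short transcripts lay 0.33 above and 0.33 below the stage mean in the same order.

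These calls depended on single libraries as well. Sycp2 was not called without D4 replicate 2 (adjusted p = 0.0734), D4 replicate 3 (0.0823), D16 replicate 1 (0.163) or D16 replicate 2 (0.0511), and Syce1 not without D16 replicate 1 (0.0788). The count was 4 of 10 without 6.5 dpp CSF replicate 3, without D16 replicate 2 or without D30 fresh replicate 3, and 7 of 10 without 6.5 dpp CSF replicate 3 and D30 fresh replicate 3 together (Stag3, Sycp2, Sycp3, Hormad1, Hormad2, Syce1 and Syce3). It was 6 of 10 in a fit of the 2 stages alone and 0 of 10 with 6.5 dpp fresh replicate 1 kept.

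From D16 to D30 the test called 0 of the 10 genes, against 1.79% of all genes, with 0 of 10 at an unadjusted p under 0.05 in both edgeR and DESeq2. All 10 genes had overlapping libraries. Sycp2 was at 425, 433 and 178 CPM in the fresh explants and 255 CPM in the CSF explant at D30, and Stag3 at 408, 341, 193 and 244 CPM. D30 fresh replicate 3 was the lowest of the 4 for each of the 10 genes. The same library had 262 CPM of Ddx4, a gene of all germ cells, against 541, 552 and 400 CPM in the others. Fold changes ran from -0.40 ± 0.45 for Syce3 to 0.23 ± 0.39 for Syce1.

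At the age of 22.5 dpp, Sycp2 stood lower in explants than in testes, the reverse of its order at 10.5 dpp. Sycp2 was at 396 and 379 CPM at D16 and 851, 814 and 673 CPM at 22.5 dpp, a log2 fold change of -1.16 ± 0.33 (adjusted p = 0.0179). Stag3 was at 376 and 281 CPM against 724, 621 and 731 CPM (-1.24 ± 0.30, adjusted p = 0.00747). These were the 2 genes called of 10, both lower in culture, against 25.8% of all genes in either direction and 11.8% lower. They were also the only ones of the 10 whose libraries did not overlap, with culture below (18.9% of genes with a count). The median was -0.45 over the 10 genes and -0.08 over all genes. Syce1 (-1.10 ± 0.42, adjusted p = 0.0625) and Sycp1 (-0.73 ± 0.31, adjusted p = 0.0845) came next, and DESeq2 called all 4.

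Sycp3, Hormad1 and Tex12 were at -0.14 ± 0.54, -0.31 ± 0.66 and 0.03 ± 0.73 in this comparison, with D16 libraries on either side of the 22.5 dpp values. For Sycp3, D16 had 259 and 106 CPM and 22.5 dpp 175, 200 and 171 CPM. Sycp2 was not called without 22.5 dpp replicate 1 (adjusted p = 0.0638) or D16 replicate 2 (0.16), and Stag3 not without D16 replicate 2 (0.137). Without D30 fresh replicate 3, 4 of 10 were called, and with 6.5 dpp fresh replicate 1 kept 0 of 10.

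At the age of 36.5 dpp, 4 of the 10 genes were lower in culture and 0 higher, against 67.4% of all genes called in either direction and 35.0% lower. Syce2 was at 58.1, 79.1 and 35.6 CPM in fresh and 76.3 CPM in CSF explants at D30, against 198 and 151 CPM at 36.5 dpp (-2.11 ± 0.36, adjusted p = 8.08e-05). Syce3 was at 22.5, 27.2, 11.2 and 27.4 CPM against 63.2 and 55.5 CPM (-2.06 ± 0.44, adjusted p = 0.000574). In both genes the highest cultured library was below the lowest in vivo library, as in 4 of the 10 genes and 22.7% of genes with a count. Syce1 was at 230, 276, 88.5 and 214 CPM against 427 and 385 CPM (-1.63 ± 0.37, adjusted p = 0.000954), and Stag3 at 408, 341, 193 and 244 CPM against 458 and 644 CPM (-1.52 ± 0.26, adjusted p = 7.32e-05). The same 4 genes were called under each alternative run, except that Syce1 and Stag3 did not pass the stricter threshold. Over all genes, short transcripts had a median of -0.98 and long ones of 0.34 in this comparison.

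The other 6 genes had overlapping libraries at that age. Sycp2 had 178 to 433 CPM at D30 around 268 and 281 CPM (-0.39 ± 0.30, adjusted p = 0.258), and Sycp1 104 to 228 CPM around 158 and 124 CPM (-0.29 ± 0.28, adjusted p = 0.372). Sycp3, Hormad2, Tex12 and Hormad1 were at 0.08 ± 0.51, 0.02 ± 0.43, -0.27 ± 0.69 and -0.53 ± 0.61. A fold of D30 over 36.5 dpp is thus known only to about these errors, and a p above the threshold does not show that the levels were alike.

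Whether a step differed between culture and testis was tested as a difference of fold changes. For D4 to D16 against 10.5 to 22.5 dpp, 2 of 10 genes were called, both with a smaller change in culture, against 9.61% of all genes in either direction and 4.36% lower. Sycp2 rose by 1.03 in culture and 3.28 in vivo, a difference of -2.25 ± 0.44 (adjusted p = 0.00489), and Sycp1 by 0.57 and 1.95, a difference of -1.38 ± 0.41 (adjusted p = 0.041). These genes had started from higher levels at D4, and the comparisons at D4, at D16 and of the steps share the same libraries. The differences of the other 8 ran from -1.38 ± 0.89 (Hormad1, adjusted p = 0.342) to -0.07 ± 0.54 (Syce2, adjusted p = 0.973).

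The call of Sycp1 was lost without any 1 of the 3 libraries of 10.5 dpp or of D4, without 22.5 dpp replicate 1 or 2, without D16 replicate 2 and without 6.5 dpp CSF replicate 2, with adjusted p from 0.0513 to 0.22, and that of Sycp2 was kept without each single library but not with 6.5 dpp fresh replicate 1 kept (0.416). For D16 to D30 against 22.5 to 36.5 dpp, Syce2 alone was called, against 20.1% of all genes (8.63% lower), with 0.11 in culture and 1.87 in vivo, a difference of -1.76 ± 0.54 (adjusted p = 0.0302). Syce3 was near, at -1.74 ± 0.66 (adjusted p = 0.0684). For this difference of steps the median over all genes was -0.63 for short and 0.42 for long transcripts, against -0.06 and -0.02 for the first one, and its part in the values of Syce2 and Syce3 was not tested. The call of Syce2 was lost without 22.5 dpp replicate 2 (0.0674), 36.5 dpp replicate 1 (0.109) or D16 replicate 1 (0.201). Without D30 fresh replicate 3 and 6.5 dpp CSF replicate 3 together, 4 of 10 and 3 of 10 were called at the 2 steps.

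**Figure D4:**
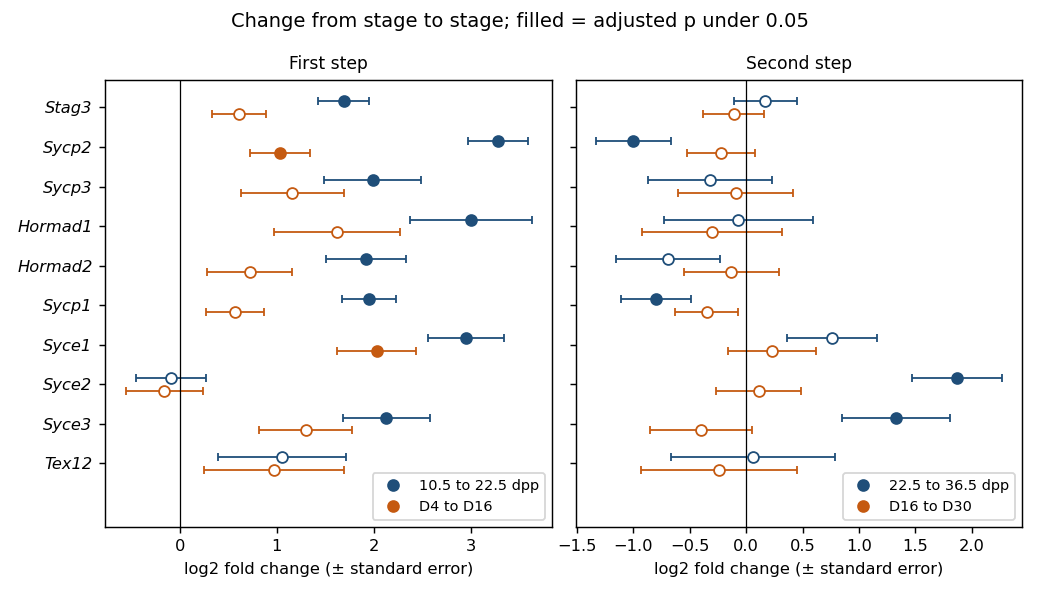
Log2 fold change (± standard error) of each gene over the first step (left, 10.5 to 22.5 dpp in blue and D4 to D16 in orange) and the second step (right, 22.5 to 36.5 dpp and D16 to D30), with filled points for an adjusted p under 0.05. On the left the blue points lie to the right of the orange ones for all 10 genes, least so for Syce2 and Tex12, and on the right the blue points spread from -1.0 (Sycp2) to 1.87 (Syce2) while the orange ones stay between -0.40 and 0.23.

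Ratios between genes within a library do not depend on the library total, but they can move with the shift between short and long transcripts. Sycp2 over Stag3 was 0.372 ± 0.0443 at 10.5 dpp and 0.883 ± 0.146 at D4, with no overlap, and 1.14 ± 0.197 at 22.5 dpp and 1.20 ± 0.210 at D16. At 36.5 dpp it was 0.511 ± 0.104, below every D30 library (1.07 ± 0.145). Syce1 over Sycp2 was 0.554 ± 0.0685 at 10.5 dpp, 0.444 ± 0.160 at 22.5 dpp and 1.48 ± 0.160 at 36.5 dpp. In culture it was 0.235 ± 0.0611 at D4, 0.452 ± 0.231 at D16 and 0.629 ± 0.153 at D30. The highest library of 6.5 dpp reached 1.59 for this ratio. Exons of Syce1 add up to 1460 bases and those of Sycp2 to 5967. For D30 against 36.5 dpp the median log2 fold change was -0.98 for short and 0.34 for long transcripts, and its part in this ratio was not tested. Sycp1 over Stag3 was above 0.5 in each cultured library and under 0.5 in all but 2 in vivo ones, 6.5 dpp CSF replicate 3 (0.595) and 22.5 dpp replicate 2 (0.758).

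**Figure D5:**
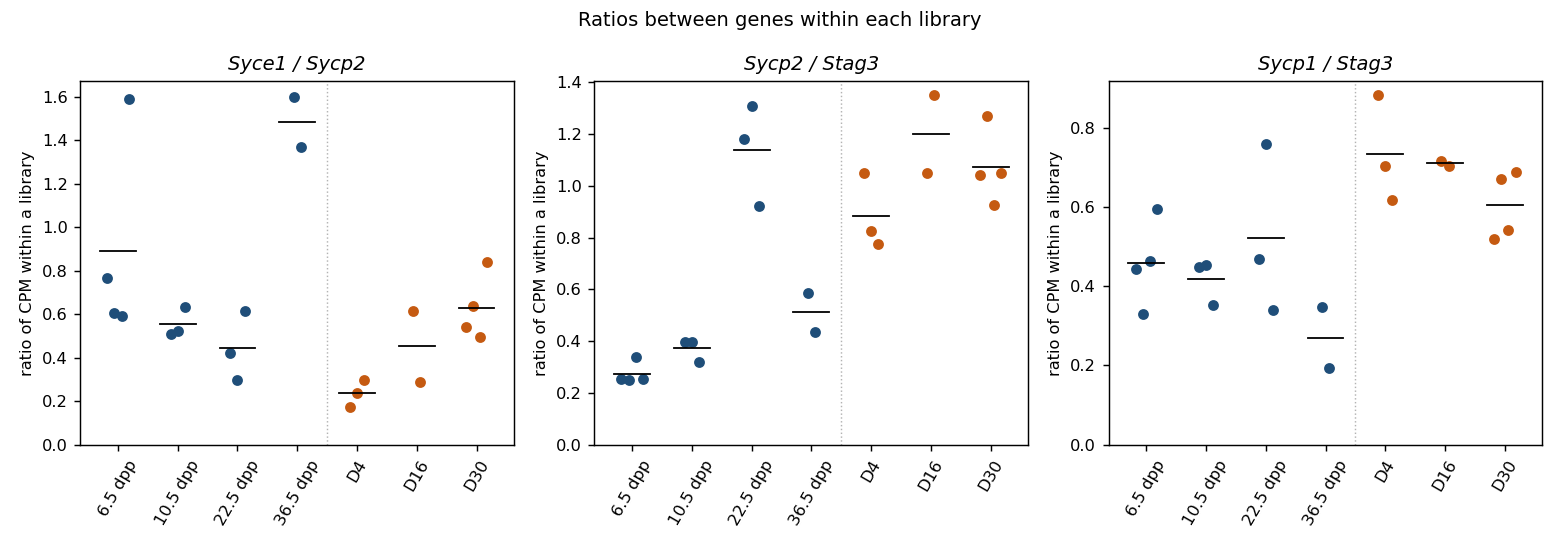
Ratios of CPM between pairs of the genes within each library (linear axes from 0), with in vivo stages in blue and culture days in orange and bars at the stage means. The libraries of 36.5 dpp are at 1.37 and 1.60 for Syce1 over Sycp2, above all cultured libraries, and the D4 libraries are above those of 10.5 dpp for the other two ratios.

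Ddx4 was used as a rough scale for germ cell RNA. Its own mean went from 268 CPM at 10.5 dpp to 852 CPM at 22.5 dpp and 588 CPM at 36.5 dpp. A ratio to it is therefore not a level per germ cell. Ddx4 was at 280, 268 and 255 CPM at 10.5 dpp and at 196, 183 and 176 CPM at D4. Every D4 library thus lay below every 10.5 dpp library, which was so for 25.9% of genes with a count. The test did not call Ddx4 there, while it called Sycp2 higher. Sycp2 over Ddx4 was 0.368 ± 0.0424 at 10.5 dpp and 1.06 ± 0.109 at D4, 0.914 ± 0.0502 at 22.5 dpp and 0.754 ± 0.186 at D16, and 0.468 ± 0.0271 at 36.5 dpp and 0.722 ± 0.0745 at D30. Stag3 over Ddx4 was 0.994 ± 0.0877 at 10.5 dpp and 1.21 ± 0.0750 at D4, the reverse of its order in CPM. Syce2 over Ddx4 was 0.296 ± 0.0494 at 36.5 dpp and 0.144 ± 0.0345 at D30, still with no overlap.

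Marker genes of cell types moved with these comparisons, and their part in them was not tested. Over all genes, 8.10% were called in either direction at D4 against 10.5 dpp, 25.8% at D16 against 22.5 dpp and 67.4% at D30 against 36.5 dpp. Markers of pachytene spermatocytes summed to 98.3 to 107 CPM at 10.5 dpp and 149 to 182 CPM at D4, with 1 of 6 called higher at D4. They summed to 5826 to 8904 CPM at 22.5 dpp and 2327 to 5554 CPM at D16 (2 of 6 lower), and to 9103 to 11777 CPM at 36.5 dpp and 1817 to 5664 CPM at D30 (5 of 6 lower). Spermatid markers summed to 16660 to 21474 CPM at 36.5 dpp and 366 to 1676 CPM at D30, with 6 of 6 lower. Markers of all germ cells summed to 1123 to 1349 CPM at 10.5 dpp and 892 to 1093 CPM at D4 (0 of 4 called), and those of spermatogonia to 793 to 837 and 615 to 684 CPM (1 of 6 called, higher).

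Somatic markers differed at all 3 ages. At D4 against 10.5 dpp, Sertoli cell markers summed to 7872 to 8800 and 5245 to 5515 CPM (1 of 6 higher), Leydig cell markers to 291 to 509 and 988 to 1144 CPM (3 of 5 lower) and macrophage markers to 40.8 to 65.2 and 80.6 to 113 CPM (2 of 4 lower). Peritubular and stromal markers summed to 2900 to 3787 CPM at D4 and 2456 to 2750 CPM at 10.5 dpp, although the 1 of 5 called was lower. Endothelial markers summed to 131 to 171 and 149 to 157 CPM (1 of 3 higher and 1 lower). At the later ages Sertoli cell markers summed to 1652 to 2867 CPM at 22.5 dpp and 5156 to 7253 CPM at D16, and to 691 to 912 CPM at 36.5 dpp and 5525 to 9404 CPM at D30, with 6 of 6 higher in culture at both ages. Macrophage markers summed to 65.2 to 111 CPM at 36.5 dpp and 318 to 702 CPM at D30 (4 of 4 higher), and those of peritubular and stromal cells to 154 to 250 and 1171 to 1821 CPM (5 of 5 higher). Leydig cell markers summed to 1549 to 1925 and 317 to 571 CPM (5 of 5 lower) and those of endothelium to 10.9 to 14.6 and 98.4 to 136 CPM (2 of 3 higher, 1 lower). No marker was at or under 3 counts in all libraries of a stage.

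Among other genes of the pathway, the 3 further cohesin subunits of meiotic cells gave 1 call, upward, between 10.5 and 22.5 dpp and another, also upward, between 22.5 and 36.5 dpp. Rec8, the meiotic kleisin, was at 24.2 ± 7.23 CPM at 10.5 dpp, 28.7 ± 6.71 at 22.5 dpp and 83.0 ± 9.03 at 36.5 dpp, and rose by a log2 fold change of 2.02 ± 0.27 over the last step (adjusted p = 1.95e-05). At D30 it was at 19.8 ± 2.69 CPM (-2.70 ± 0.25 against 36.5 dpp, adjusted p = 2.07e-07). Smc1b rose at 22.5 dpp (0.72 ± 0.28, adjusted p = 0.0348) and was the one called at that step. The 5 cohesin subunits of all cells fell between 10.5 and 22.5 dpp, 5 of 5, for example Rad21 from 439 ± 35.3 to 142 ± 48.0 CPM (-1.35 ± 0.21, adjusted p = 3.06e-05). Stag3 rose over that step, and 4 of the 5 were higher at D30 than at 36.5 dpp. Of all genes, 61.5% were called in either direction between 10.5 and 22.5 dpp and 67.4% for D30 against 36.5 dpp.

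The 11 further genes of axis, synapsis and break formation gave 6 higher and 4 lower between 10.5 and 22.5 dpp, against 61.5% of all genes called. Spo11, which makes the meiotic double-strand breaks, rose from 3.99 ± 0.399 to 117 ± 13.4 CPM (5.18 ± 0.39, adjusted p = 5.82e-09), while Trip13, an ATPase that removes HORMAD proteins from synapsed axes, fell from 68.7 ± 3.38 to 27.0 ± 7.01 CPM (-1.07 ± 0.18, adjusted p = 5.88e-05). At D4 against 10.5 dpp, 3 of 11 were called, all higher: Meiob, a recombination factor that binds single-stranded DNA (28.6 ± 2.74 and 5.72 ± 1.51 CPM, 2.41 ± 0.44, adjusted p = 0.00159), Spo11 (10.3 ± 0.840 and 3.99 ± 0.399 CPM, 1.45 ± 0.34, adjusted p = 0.0105) and 4930447C04Rik, also named Six6os1, a central element gene (70.2 ± 13.4 and 34.3 ± 9.62 CPM, 1.12 ± 0.33, adjusted p = 0.0447). At D16 against 22.5 dpp, 3 of 11 were lower and 0 higher, and at D30 against 36.5 dpp 4 were higher and 2 lower. The shares of all genes called in either direction were 8.10%, 25.8% and 67.4% in these 3 comparisons.

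Of the genes that tether chromosome ends to the nuclear envelope, 5 were counted, Majin, Terb1, Terb2, Sun1 and Kash5. They rose together between 10.5 and 22.5 dpp, 5 of 5. Speedya was also planned for this list but was not among those counted. Of all genes, 33.6% rose at that step. Kash5 went from 12.3 ± 3.01 to 188 ± 30.2 CPM (4.24 ± 0.35, adjusted p = 2.07e-08). At D4 against 10.5 dpp 0 of 5 were called. At D16 against 22.5 dpp 3 of 5 were lower (11.8% of all genes), with Kash5 at 83.8 ± 31.2 CPM (-1.33 ± 0.36, adjusted p = 0.0144). For the first step 3 of 5 changed less in culture, where 4.36% of all genes were called lower. Of the 5 genes of meiotic entry, 4 passed the filter, Zglp1 having at most 0.168 CPM as a stage mean. Stra8 was at 160 ± 6.77 CPM at 10.5 dpp and 182 ± 34.9 CPM at D4 (0.27 ± 0.22, adjusted p = 0.62), and 0 of 4 were called there.

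For freezing, estimated over both stages that hold CSF libraries, 0 of 10 genes and 0 of 19255 genes were called by edgeR, with 0 of 10 at an unadjusted p under 0.05. Fold changes ran from -0.24 ± 0.26 (Stag3) to 0.93 ± 0.67 (Tex12). The term rests on 1 fresh library at 6.5 dpp and 1 CSF library at D30, and the median of short transcripts along it was 0.26.

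Genes outside the 10 with the most similar course over the 7 stages were sought among 14562 genes by the correlation of their stage means of log2(CPM + 0.5) with the mean standardized course of the 10. The first 5 were Sirt2 (r = 0.995), 9330102E08Rik (0.995), Fam161b (0.994), Rims2 (0.994) and Ccdc73 (0.993). The mean of Sirt2 went from 53.2 CPM at 10.5 dpp to 162 CPM at 22.5 dpp and from 64.0 CPM at D4 to 113 CPM at D16, with 116 CPM at 36.5 dpp and 106 CPM at D30. In total 338 of the 14562 genes had an r of at least 0.95, so the course is not particular to the 10 genes. Among the 10 themselves r ran from 0.977 (Hormad1) and 0.969 (Sycp2) down to 0.697 (Tex12) and -0.069 (Syce2). With 7 points that share libraries, these values are a description.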

How the data were processed

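RNA of whole testes and of pooled, trimmed explants was sequenced from stranded poly(A) libraries as single-end reads of 50 bases. The authors aligned the reads to GRCm38 with STAR 2.7.3a and counted them per gene with HTSeq 0.12.4, and the deposited values are raw counts. The strand setting and annotation release of the counting are not given in the sources used here. The 23 columns held 27466 genes, of which 3712 had no count, and 21 libraries were used, with a median total of 41104442 counts. The total sets the precision of low genes, and the floor was taken as 3 counts.

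Counts were tested with edgeR 4.0.16 (R 4.3.3): genes were filtered by filterByExpr with the stage as group, scaled by TMM and fitted in 1 quasi-likelihood model of 7 stages, and p-values were adjusted by Benjamini-Hochberg over the 19255 genes tested in each of 12 comparisons, with a call at an adjusted p under 0.05. Standard errors follow the log2 fold changes after ±. They were derived from the test, as the size of the log2 fold change divided by the square root of its F statistic. Freezing was a term added to the stages. Comparisons share libraries. Exon lengths are unions of GENCODE M21 exons. DESeq2 1.42.0, other scalings, other filters, a stricter threshold (a log2 fold change of 2 or more in size and an adjusted p of 0.001 or less), a replicate block and other choices of libraries were alternatives. All 10 genes are named, and others by their list. The 10 genes and all lists were chosen with earlier results of these data known.

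Replicate numbers gave no clear pairing of the libraries. Deviations from the group means correlated with a median r of 0.016 over 52 pairs with the same number (15 above 0.1, range -0.575 to 0.661). The median was -0.0075 over 102 other pairs (24 above 0.1, range -0.664 to 0.664). In a group of 2 libraries the deviations mirror each other, so these medians cannot exclude a pairing.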

Additional observations from a re-analysis of the deposited data

Results flagged for a closer look

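In the 4 libraries of 6.5 dpp, CSF replicate 3 stood apart from the others by Dixon's criterion for Sycp3 (82.4 CPM), Syce1 (49.4 CPM), Syce2 (168 CPM), Syce3 (19.5 CPM) and Hormad2 (21.5 CPM). Chance flags about 1 in 20 groups for each gene. The same library held the largest deviation of short transcripts, and its part in these values was not tested.

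The change between 2 stages differed between culture and testis, by a test of the difference itself, for Sycp2 (-2.25 on the log2 scale) and Sycp1 (-1.38) over the first step and for Syce2 (-1.76) over the second. For the second, short transcripts as a whole had a median of -0.63 and long ones of 0.42, and the part of this in the value of Syce2 was not tested.

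The library labelled 6.5 dpp fresh replicate 1, which entered the comparisons only in the alternative that kept it, was above every other 6.5 dpp library for Stag3 (473 CPM), Sycp2 (580 CPM), Sycp3 (146 CPM), Hormad1 (111 CPM), Hormad2 (33.5 CPM), Sycp1 (297 CPM), Syce1 (198 CPM) and Syce3 (23.4 CPM). Syce2, at 41.5 CPM, and Tex12, at 24.8 CPM, were not above them.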

How the results depend on the processing

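A set of 35 printed pairs of gene and comparison was followed through the alternatives, and no log2 fold change among them changed sign. The other printed fold changes were not followed. Among these, Sycp1, Sycp2, Tex12 and Hormad1 had fitted changes of -0.29, -0.39, -0.27 and -0.53 for D30 against 36.5 dpp. Their ratios of mean CPM were above 1 instead, at 1.26, 1.18, 1.27 and 1.06. Stag3 had a fitted change of 0.17 between 22.5 and 36.5 dpp but a ratio of mean CPM of 0.796. Stage means of the 10 genes, given above in plain CPM, were also taken on TMM effective library sizes. There 22 of them moved by at least 1 SD over libraries and 48 moved less. The counts of the 10 genes called moved as follows. With the stricter threshold 4 were called between 10.5 and 22.5 dpp, 0 between 22.5 and 36.5 dpp, 1 for D4 against 6.5 dpp, 0 for D16 against D4, 0 for D4 against 10.5 dpp, 0 for D16 against 22.5 dpp, 2 for D30 against 36.5 dpp and 0 for each difference of steps. With 6.5 dpp fresh replicate 1 kept, 1 was called between 22.5 and 36.5 dpp and 0 for D4 against 6.5 dpp, D16 against D4, D4 against 10.5 dpp, D16 against 22.5 dpp and both differences of steps, while the 8 calls between 10.5 and 22.5 dpp and the 4 at D30 against 36.5 dpp were made again. With fresh libraries only, 1 was called for D4 against 6.5 dpp, 1 for the first difference of steps and 2 for the second. In fits of the compared stages alone, 2 were called between 22.5 and 36.5 dpp, 6 for D16 against D4, 5 for D4 against 10.5 dpp and 4 for the first difference. DESeq2 called 1 between 6.5 and 10.5 dpp, 4 for D16 against 22.5 dpp and 2 for the second difference. An alternative chosen after seeing the data, without 6.5 dpp CSF replicate 3 and D30 fresh replicate 3, gave 1 between 6.5 and 10.5 dpp, 6 for D4 against 6.5 dpp, 7 for D16 against D4, 4 for D16 against 22.5 dpp, 4 for the first difference and 3 for the second. The causes of these shifts were not tested.

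With library size as the only scaling, 1 was called between 6.5 and 10.5 dpp, 1 for the first difference and 1 for the second, where the call was Sycp2, higher, in place of Syce2, lower. That scaling moved the median of all genes from 0.06 to -0.23 between 10.5 and 22.5 dpp, from -0.13 to -0.63 between 22.5 and 36.5 dpp, from -0.03 to 0.60 for D30 against 36.5 dpp, and from -0.03 to 0.21 and from 0.11 to 0.59 for the differences. Of all genes, 6464 were higher and 5371 lower between 10.5 and 22.5 dpp in the first scaling and 5516 and 7082 in the second, and for D30 against 36.5 dpp 6237 and 6747 became 8833 and 4585, between 22.5 and 36.5 dpp 4485 and 5286 became 3247 and 8379, for D4 against 10.5 dpp 947 and 612 became 705 and 702, for D16 against 22.5 dpp 2695 and 2272 became 3250 and 1526, and for the differences 1012 and 839 became 1614 and 592, and 2206 and 1661 became 5417 and 1178. With RLE size factors, D16 against 22.5 dpp had 2258 and 2890, 22.5 to 36.5 dpp 5161 and 4047, and the differences 857 and 993, and 1445 and 1901.

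Leaving out each library in turn gave 0 to 1 calls between 6.5 and 10.5 dpp, 8 between 10.5 and 22.5 dpp, 1 to 4 between 22.5 and 36.5 dpp, 2 to 5 for D4 against 6.5 dpp, 0 to 4 for D16 against D4, 0 for D30 against D16, 0 to 1 for D4 against 10.5 dpp, 0 to 4 for D16 against 22.5 dpp, 4 for D30 against 36.5 dpp, 1 to 3 for the first difference, 0 to 2 for the second and 0 for freezing. The second difference had 2 calls without 6.5 dpp CSF replicate 3 or D16 replicate 2.

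With the replicate block, 1 gene was called between 6.5 and 10.5 dpp, Sycp2, and 3 for both D16 against D4 and D16 against 22.5 dpp. Since the numbers share no stated origin, this pairing is only nominal. Groups of 2 libraries (36.5 dpp and D16) limit every comparison that uses them.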
